A study of Arabidopsis thaliana with 72 samples.

Results

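The beta-tubulin genes TUB1 to TUB9 of Arabidopsis thaliana were followed in shoots and roots of seedlings exposed to citral. They were taken by locus identifier and all 9 were found among the 22122 loci of the deposited table. RNA was sequenced from 14-day-old agar-grown seedlings given citral, 0.1% ethanol or no addition; strain and genotype were not labelled. Citral plants were sampled at 1, 3, 6, 12 and 24 h, ethanol plants at the same times and at 0 h, and plants without addition at 0 h (called untreated here). Shoots and roots were kept apart, which gave 24 groups of 3 libraries. The series design gives citral at 202 µM, whereas the treatment protocol of the samples names t-chalcone at 21 µM, added 7 h into a light period of 16 h, with 8 h of dark. The agent labels name citral and were followed here. The labels do not say whether the 3 libraries of a group are separate cultures, and p-values therefore reflect only the spread between libraries, which may be technical.

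Beta-tubulin joins alpha-tubulin in the dimer from which microtubules are built. In plant cells cortical microtubules guide the cellulose synthesis that orients growth, and other arrays serve cell division. Plants carry several beta-tubulin genes whose proteins are much alike and whose patterns of expression differ. Citral, made up of geranial and neral, is known to disrupt plant microtubules. In animal cells a surplus of free tubulin dimers is known to speed the decay of tubulin messenger RNA.

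Gene positions and sequences below are from RefSeq TAIR10.1, and the submitters' processing notes name TAIR10 as the build. TUB1 (AT1G75780) lies on the minus strand at chr1:28451138-28453820 and TUB5 (AT1G20010) on the minus strand at chr1:6937719-6940832. TUB4 (AT5G44340) is at chr5:17859136-17861150, minus strand, and TUB9 (AT4G20890) at chr4:11182092-11184559, plus strand. TUB6 (AT5G12250) is at chr5:3960938-3963624 and TUB7 (AT2G29550) at chr2:12643917-12646057, both minus, and TUB8 (AT5G23860) at chr5:8042853-8044934, plus. TUB2 (AT5G62690, chr5:25181296-25183811) and TUB3 (AT5G62700, chr5:25184258-25186777) are neighbours on the plus strand. The genes have 3 exons, TUB6 4, and code for 444 to 450 amino acids. Across the 36 pairs the proteins were 91.4% to 100% identical and the coding sequences 79.1% to 97.6%. TUB2 and TUB3 code for the same protein and differ at 32 of 1353 coding bases. Coding bases 508 to 567 are shown as a stretch where the pair can be told apart, by 4 of 60 letters, here in capitals:
TUB2: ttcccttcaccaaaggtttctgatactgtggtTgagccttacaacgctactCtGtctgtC
TUB3: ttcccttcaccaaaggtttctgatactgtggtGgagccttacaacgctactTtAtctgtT
Of all 50-base stretches of the TUB2 transcript, 22.3% occurred unchanged in another beta-tubulin transcript, and of those of TUB3 22.02%, against at most 0.235% in each other member. How shared reads were assigned is not given in the sources used here, so the values of TUB2 and TUB3 are uncertain as single genes. After this pair the most alike coding sequences were those of TUB1 and TUB5 (87.7%) and of TUB4 and TUB9 (87.3%). The use of strand in counting is not given either. TUB1 overlaps AT1G75785 by 609 exon bases of the opposite strand and AT1G75770 by 11, TUB7 overlaps AT2G29540 by 28 and TUB9 overlaps AT4G20900 by 457, also opposite, and TUB6 overlaps AT5G12240 by 83 on its own strand. Reads from the stretch in TUB6 cannot be assigned to 1 gene, and those from the others only if strand was used. AT1G75785 and AT4G20900 are not among the loci with values, so their levels are not known.

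The promoters of 4 members are shown, since TUB1 and TUB5 had the largest falls under citral and TUB4 and TUB9 hold a motif read by clock factors. Each line holds the 250 bases before the annotated gene start, 5′ to 3′ on the gene's own strand, with matches to the motifs searched in capitals.
TUB1, chr1:28453821-28454070, minus strand: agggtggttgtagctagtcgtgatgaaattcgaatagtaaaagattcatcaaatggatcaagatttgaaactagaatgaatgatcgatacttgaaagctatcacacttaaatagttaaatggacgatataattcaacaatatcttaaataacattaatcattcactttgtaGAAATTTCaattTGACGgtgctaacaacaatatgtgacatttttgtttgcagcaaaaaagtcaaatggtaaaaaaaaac
TUB5, chr1:6940833-6941082, minus strand: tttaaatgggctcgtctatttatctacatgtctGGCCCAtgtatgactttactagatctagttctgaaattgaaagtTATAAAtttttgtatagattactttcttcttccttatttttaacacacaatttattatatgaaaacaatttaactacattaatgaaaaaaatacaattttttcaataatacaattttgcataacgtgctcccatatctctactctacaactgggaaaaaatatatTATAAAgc
TUB4, chr5:17861151-17861400, minus strand: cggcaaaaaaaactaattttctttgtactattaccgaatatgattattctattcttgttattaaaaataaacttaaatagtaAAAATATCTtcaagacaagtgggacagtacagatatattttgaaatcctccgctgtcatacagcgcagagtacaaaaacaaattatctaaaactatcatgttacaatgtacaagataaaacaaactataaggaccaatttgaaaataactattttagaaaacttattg
TUB9, chr4:11181842-11182091, plus strand: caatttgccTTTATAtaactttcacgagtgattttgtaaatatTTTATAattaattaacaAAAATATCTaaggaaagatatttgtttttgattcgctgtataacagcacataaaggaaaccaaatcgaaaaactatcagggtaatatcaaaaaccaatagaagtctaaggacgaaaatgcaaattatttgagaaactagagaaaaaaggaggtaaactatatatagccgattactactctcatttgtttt
The 8 motifs were read on both strands, so a match may stand reverse-complemented. The evening element AAAATATCT, bound by the clock factors CCA1 and LHY, lay 168 bases before the start of TUB4 and 190 bases before that of TUB9, and in none of the other 7 members. It occurred in 2.46% of 21969 promoters of this length. TUB1 held GAANNTTC, the core of the heat shock element, 79 bases before its start (9.41% of promoters), and TGACG, the core read by TGA factors, 67 bases before (19.1%). GAANNTTC also occurred in TUB3 and TUB8, and TGACG in TUB6. TUB5 held TGGGCC (15.5% of promoters), as did TUB2 and TUB3, and TATAAA (46.6%), as did TUB7, TUB8 and TUB9. CACGTG, the G-box, occurred in TUB7 (7.25%) and AACGG in TUB7 and TUB8 (21.4%), while AAACCCTA, the telo box, was in 0 of 9 (3.54%). In TUB2 and TUB3 the 2 matches to TGGGCC overlap each other.

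Levels are given as CPM, the reads of a gene scaled to the total of its library. Depth was lower under citral, with a median of 3.43 M reads (range 1.58 to 3.59, 30 libraries) beside 11.4 M in the 42 other libraries, so depth and citral cannot be told apart. Of the ethanol libraries 4 held under 0.5 M reads (root 0 h replicate 1, root 3 h replicate 1, shoot 12 h replicate 2 and shoot 24 h replicate 3). They were left out of means ± SD but kept in the tests, and their values are given as shallow where named. Their library weights in the fits of each organ were, in the same order, 0.528, 0.590, 0.0233 and 0.984. Only the shoot library of 12 h was thus weighted down strongly. In the other libraries each beta-tubulin rested on at least 5.49 reads. Organ genes followed the labels, since RBCS1A, of the leaf carbon-fixing enzyme, averaged 26.5 ± 8.59 CPM in untreated roots and 8863 ± 542 in untreated shoots (SD, n = 3 each). Clock genes went against the hour labels of the ethanol plants. LHY, which peaks near dawn, averaged 47.3 ± 1.33 CPM in citral shoots of 24 h (n = 3), 407 ± 15.9 CPM in ethanol shoots of 24 h (n = 2) and 16.1 ± 2.01 in ethanol shoots of 0 h (n = 3), which is the same hour by the labels. TOC1, an evening gene, averaged 37.7 ± 4.97 CPM in ethanol shoots of 3 h, near the 39.96 ± 5.47 of 0 h, but 208 ± 24.6 at 1 h and 188 ± 14.8 at 6 h (n = 3 each). Results were therefore also computed against the ethanol group of 0 h. By the labels that group differs from all citral plants in time since treatment and, up to 12 h, in hour of day. Against it citral and time cannot be told apart.

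In untreated plants TUB4 was the most abundant member per length and TUB1 the least in both organs. TUB4 averaged 252 ± 0.562 CPM per kb of transcript in roots, followed by TUB3 (198 ± 5.78), TUB2 (173 ± 2.96), TUB6 (135 ± 11.5), TUB7 (106 ± 6.69), TUB9 (74.4 ± 1.05), TUB5 (60.8 ± 4.70), TUB8 (51.3 ± 4.11) and TUB1 (40.7 ± 1.79 CPM per kb; SD, n = 3 each). No neighbours in this order overlapped in their libraries. In shoots TUB4 averaged 147 ± 10.4 CPM per kb, and TUB3 (136 ± 4.57), TUB6 (131 ± 8.19), TUB2 (129.7 ± 5.51) and TUB5 (123 ± 8.14) came next, each overlapping the one before it. TUB7 (66.6 ± 2.05) and TUB8 (57.9 ± 10.9) overlapped as well. TUB9 (34.2 ± 2.61) and TUB1 (7.02 ± 0.322 CPM per kb) lay apart at the low end.

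As fitted, roots and shoots differed most in TUB1, which was higher in roots, and TUB5, which was lower. A gene was called changed at a Benjamini-Hochberg adjusted p under 0.05 over all loci tested (limma, voom with library weights). Between untreated roots and untreated shoots 3 of 9 members were higher in roots and 3 lower, where 41.4% of 21096 loci were higher and 35.9% lower. TUB1, known for its expression in roots, had 75.6, 69.6 and 74.7 CPM in untreated roots, against 12.04, 12.7 and 13.2 CPM in untreated shoots. All root libraries lay above all shoot libraries (log2 change 1.997 ± 0.12, SE, adjusted p = 4.47e-23). TUB5 had 131, 112 and 125 CPM in untreated roots, against 229.6, 253 and 261 CPM in untreated shoots, again without overlap (log2 change -1.53 ± 0.08, adjusted p = 2.19e-25). TUB9 and TUB4 were higher in roots, with log2 changes of 0.60 ± 0.07 and 0.24 ± 0.08, and TUB8 and TUB6 lower, with -0.73 ± 0.10 and -0.50 ± 0.07. TUB2, TUB3 and TUB7 did not pass. Fitted changes are on a TMM scale (trimmed mean of log ratios), which in this comparison lies -0.53 from plain CPM in log2. The direction of TUB6 rests on that shift, since it had 291, 250.3 and 254 CPM in untreated roots, against 268, 239 and 265 CPM in untreated shoots, which overlap and average slightly higher in roots. TUB2 (-0.11 ± 0.07) and TUB3 (0.03 ± 0.07) did not pass on that scale but lay apart in plain CPM. TUB2 had 330, 332 and 340 CPM in untreated roots, against 259, 253 and 238 CPM in untreated shoots. TUB3 had 392, 373 and 393 CPM in roots, against 261, 274 and 258 CPM in shoots. TUB7 (0.13 ± 0.10) averaged higher in roots in plain CPM as well. In the citral comparisons the scale lies 0.18 and 0.23 above plain CPM in roots of 1 and 3 h and 0.14 and 0.12 above it in shoots of 1 and 3 h, and under 0.1 away at other times. With quantile normalization 6 members were higher in roots and 2 lower, and TUB6 did not pass.

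In roots most beta-tubulins fell under citral, TUB1 and TUB5 furthest and TUB9 least. At 1 h 6 of 9 were lower and 0 higher, where 21.6% of 20167 loci were lower and 21.7% higher. At 3 h 7 were lower and 0 higher (26.2% and 21.2% of loci), at 6 h 9, with 0 higher (26.0% and 22.5%), and at 12 h 8, with 0 higher (18.8% and 17.3%). At 24 h 7 were lower and 1 higher (19.1% and 19.5% of loci). The median log2 change of the 9 was -0.16, -0.69, -0.78, -0.57 and -0.29 at the 5 times, beside -0.05, -0.12, -0.04, 0.00 and 0.01 over all loci tested. Markers of root cell types moved in the same roots: COBL9, a root hair gene, averaged 0.341 ± 0.337 CPM in citral roots and 23.4 ± 11.4 in ethanol roots of 3 h, and CASP1, an endodermis gene, 41.02 ± 5.26 and 162 ± 57.4 (SD, n = 3 and 2). Both markers averaged lower in citral roots at all 5 times. Fewer cells of a type and less RNA per cell cannot be told apart in whole organs, and the part of these markers in the tubulin values was not tested.

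TUB1 fell deepest. At 3 h it had 16.1, 7.07 and 9.99 CPM in citral roots, against 83.1 and 73.6 CPM in ethanol roots and 97.7 in the shallow ethanol library. The groups lay far apart, at a fitted 0.153 times the ethanol level (log2 change -2.71 ± 0.21, adjusted p = 1.08e-13). It was already down at 1 h, with 21.3, 33.4 and 23.7 CPM in citral roots against 63.02, 72.99 and 71.97 CPM in ethanol roots (log2 change -1.27 ± 0.14). At 6, 12 and 24 h the log2 changes were -2.16 ± 0.15, -1.37 ± 0.12 and -1.30 ± 0.13, all past the threshold. Its ethanol root level also moved, between 61.2 CPM at 0 h and 115 CPM at 24 h as group means.

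TUB5, nearest to TUB1 in coding sequence, moved with it. It had 29.6, 23.6 and 30.3 CPM in citral roots of 3 h, against 128 and 134 CPM in ethanol roots and 138 in the shallow library. At 6 h it had 35.6, 32.2 and 28.4 CPM in citral roots, against 133, 131 and 128 CPM in ethanol roots. No citral library reached an ethanol library at either time. The log2 changes were -0.81 ± 0.09, -1.996 ± 0.14, -1.98 ± 0.11, -0.92 ± 0.09 and -0.81 ± 0.09 from 1 to 24 h, with an adjusted p of 1.58e-17 at 6 h.

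TUB8, known from vascular tissue, was lowest early. At 1 h it had 51.5, 47.02 and 58.1 CPM in citral roots, against 103, 119 and 126 CPM in ethanol roots. At 3 h it had 38.4, 40.3 and 36.4 CPM in citral roots, against 108 and 126 CPM in ethanol roots and 73.3 in the shallow library. The groups did not overlap at either time. The log2 changes were -1.005 ± 0.09 at 1 h (adjusted p = 1.49e-11), -1.32 ± 0.13 at 3 h, -0.78 ± 0.09 at 6 h, -0.37 ± 0.08 at 12 h and -0.29 ± 0.09 at 24 h. The calls at 12 and 24 h were lost in limma-trend and against the ethanol roots of 0 h, and that at 24 h also without citral replicate 1 or 2 or ethanol replicate 1 or 2.

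The other fallers moved less. TUB6 had log2 changes of -0.25 ± 0.07, -0.70 ± 0.09, -0.50 ± 0.07, -0.57 ± 0.06 and -0.39 ± 0.06, lower at all 5 times. TUB7 did not pass at 1 h (0.19 ± 0.08, adjusted p = 0.0631) or 24 h (-0.09 ± 0.08, adjusted p = 0.372) and fell at 3, 6 and 12 h (-0.69 ± 0.12, -0.81 ± 0.08 and -0.60 ± 0.08). In ethanol roots TUB7 itself dipped at 1 h, to 119.7 ± 10.4 CPM, beside 220.4 ± 16.4 at 6 h (n = 3 each). Against the ethanol roots of 0 h TUB7 was lower at 1 h (-0.64) and 24 h (-0.30) as well. The pair with shared reads moved side by side, TUB2 at -0.15 ± 0.07, -0.42 ± 0.09, -0.53 ± 0.07, -0.42 ± 0.07 and -0.29 ± 0.07, of which that at 1 h did not pass (adjusted p = 0.0734). TUB3 gave -0.16 ± 0.06, -0.41 ± 0.08, -0.55 ± 0.06, -0.44 ± 0.06 and -0.23 ± 0.06, all past the threshold. Against the ethanol roots of 0 h the calls of TUB3 at 1 h (-0.13) and 24 h (-0.17) and of TUB2 at 24 h (-0.15) were lost. The call of TUB2 at 3 h was lost without ethanol replicate 3, and that of TUB3 at 1 h without any of 4 single libraries (citral replicates 1 and 3, ethanol replicates 2 and 3).

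TUB4 and TUB9 had their lowest log2 change at 6 h. At 1 h TUB4 was lower by a log2 change of -0.16 ± 0.06 (adjusted p = 0.0182), a call lost without any of 5 single libraries (all but citral replicate 2). TUB4 had 434, 359 and 380.5 CPM in citral roots of 3 h, against 510.0 and 522 CPM in ethanol roots and 480.4 in the shallow library. The libraries did not overlap in CPM, but the log2 change did not pass (-0.15 ± 0.08, adjusted p = 0.11), though with quantile normalization it was called lower. At 6 h it had 294, 298 and 304 CPM in citral roots, against 519, 542 and 545 CPM in ethanol roots, with no overlap (log2 change -0.78 ± 0.06, adjusted p = 7.02e-14). It stayed lower at 12 and 24 h (-0.70 ± 0.06 and -0.53 ± 0.06). TUB9, a gene known from pollen, gave 0.01 ± 0.06, -0.02 ± 0.09 and 0.12 ± 0.07 at 1, 3 and 12 h, none past the threshold, though quantile normalization called it lower at 1 and 3 h. It fell at 6 h, with 166, 188 and 175 CPM in citral roots against 242, 258 and 272 CPM in ethanol roots (log2 change -0.49 ± 0.06). At 24 h TUB9 was the member called higher, with 167, 161 and 175 CPM in citral roots against 138, 136 and 143 CPM in ethanol roots (log2 change 0.35 ± 0.06, adjusted p = 3.41e-05). Against the ethanol roots of 0 h it was lower at 6, 12 and 24 h (-0.20, -0.59 and -0.30) and did not pass at 1 and 3 h. In the same comparison TUB4 lost its call at 1 h (-0.08) and was lower at 3 h (-0.22). Without ethanol replicate 1 or replicate 2 of 24 h, TUB9, TUB3 and TUB8 lost their calls and 5 members passed in place of 8. TOC1 averaged 142 ± 8.71 CPM in citral roots of 24 h and 49.7 ± 1.53 in ethanol roots, and its part was not tested.

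**Figure D1:**
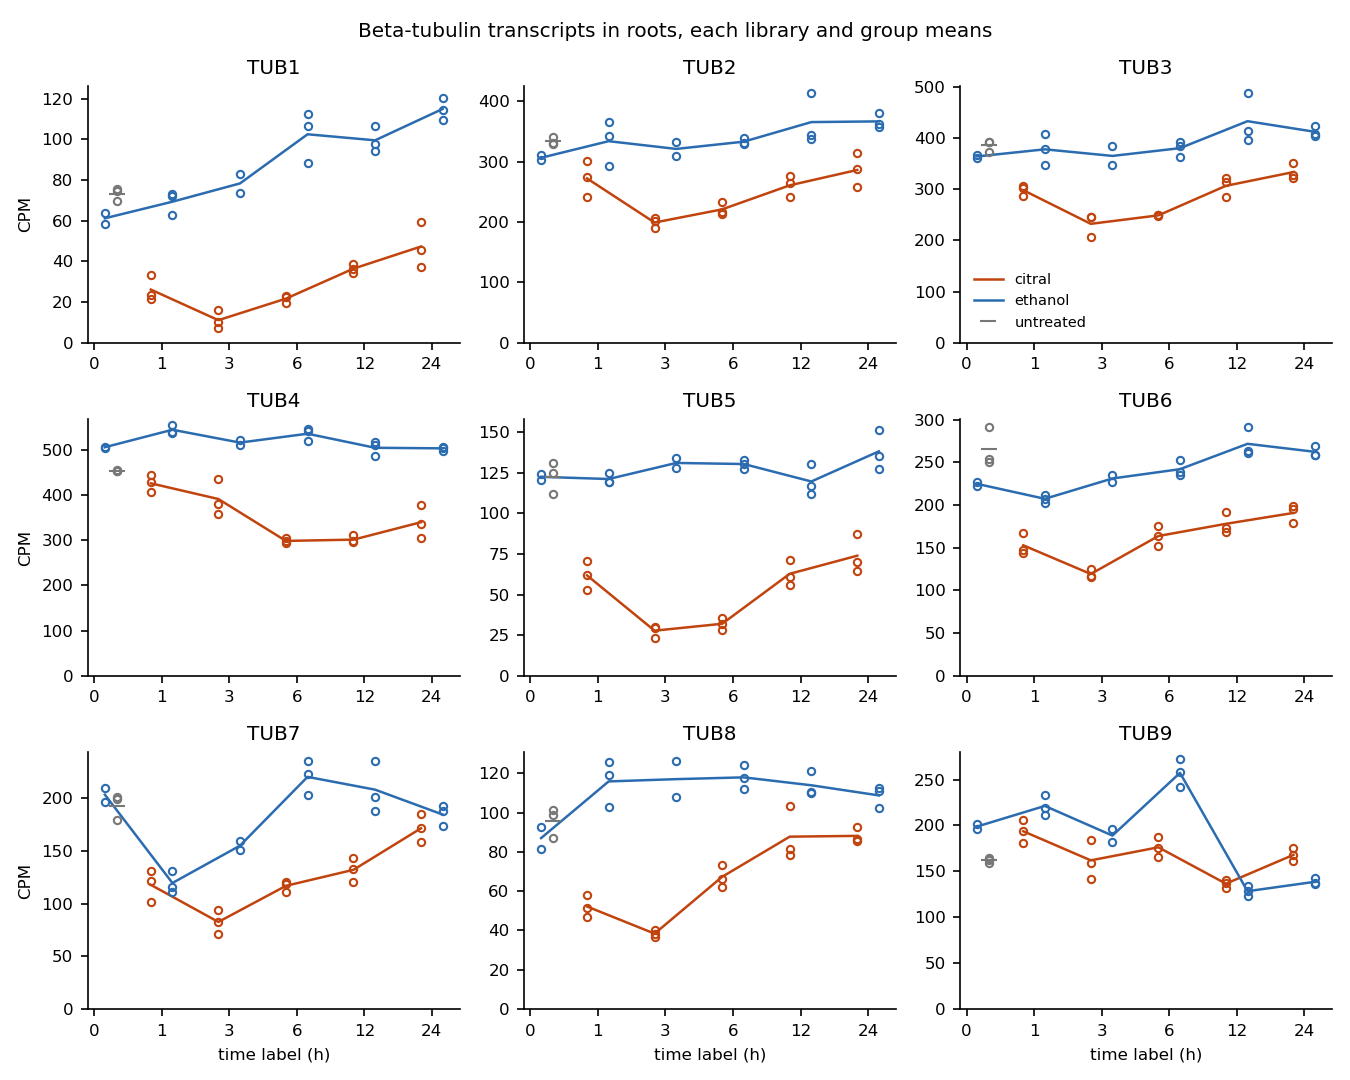
Levels of the 9 beta-tubulins in roots (CPM, axis from 0) by time label (h, equally spaced): open circles are libraries of at least 0.5 M reads, lines join group means of citral and of ethanol plants, and a dash marks the untreated mean. TUB1 and TUB5 in citral roots reach their lowest levels at 3 to 6 h, far below ethanol roots, and TUB9 at 24 h lies above.

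In shoots TUB1, TUB5, TUB6 and TUB8 had their lowest log2 change at 6 h and the other 5 members at 12 or 24 h, while TUB9 and TUB4 were higher at 3 h. At 1 h 1 of 9 was lower, TUB5, and 0 higher, where 7.92% of 19545 loci were lower and 12.6% higher. At 3 h 5 were lower and 2 higher (26.7% and 23.6% of loci), and at 6 h 8 were lower and 0 higher (19.8% and 21.7%). At 12 h 5 were lower and 1 higher (19.0% and 19.0%), and at 24 h 6 lower and 1 higher (17.2% and 16.2%). The median log2 change of the 9 was -0.10, -0.23, -0.97, -0.43 and -0.49, beside -0.03, -0.07, -0.01, -0.02 and -0.06 over all loci tested. Shoot calls depended on the library weights: in limma-trend, which gives every library the same weight, 0, 3, 4, 2 and 1 members passed at the 5 times. The shallow ethanol library of 12 h, in which 73.9% of loci had the lowest possible value, then counts in full. It enters the spread shared by all shoot comparisons. At 1 h TUB5 lost its call without citral replicate 1 or ethanol replicate 3, which left 0 in limma and 1 at an unadjusted p under 0.05. Against the ethanol shoots of 0 h more members passed at 1 h. TUB9 (1.23) and TUB4 (0.99) were then higher, and TUB6 (-0.82), TUB5 (-0.73), TUB8 (-0.52) and TUB3 (-0.34) lower.

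TUB1 and TUB5 again fell furthest. TUB1 had 3.40, 3.24 and 5.29 CPM in citral shoots of 6 h, against 27.3, 22.2 and 21.7 CPM in ethanol shoots. Every citral library lay below every ethanol library (log2 change -2.39 ± 0.31, adjusted p = 1.28e-07). At 3 h it was lower by a log2 change of -1.14 ± 0.19, and at 1 h it gave -0.37 ± 0.21, which did not pass. TUB5 had 91.8, 112 and 106 CPM in citral shoots of 6 h, against 468, 437 and 439 CPM in ethanol shoots. This was a fitted 0.233 times the ethanol level (log2 change -2.10 ± 0.11, adjusted p = 6.87e-17). At 3 h TUB5 had 116, 153 and 129.6 CPM in citral shoots, against 335, 322 and 307 CPM in ethanol shoots (-1.20 ± 0.09), and at 1 h its log2 change was -0.37 ± 0.11.

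TUB6 and TUB8 followed. TUB6 had 100.0, 110.0 and 99.1 CPM in citral shoots of 3 h, against 202, 201 and 196 CPM in ethanol shoots, without overlap. Its log2 changes were -0.85 ± 0.10 at 3 h and -1.21 ± 0.11 at 6 h. TUB8 had 45.3, 44.1 and 45.7 CPM in citral shoots of 6 h, against 121, 102 and 121 CPM in ethanol shoots (log2 change -1.36 ± 0.17), after -0.86 ± 0.14 at 3 h. TUB7 gave 0.17 ± 0.14 and 0.16 ± 0.13 at 1 and 3 h, not past the threshold, and fell at 6 h (-0.97 ± 0.15). Of the pair with shared reads TUB3 fell at 3 and 6 h (-0.23 ± 0.10 and -0.65 ± 0.11) and TUB2 at 6 h (-0.33 ± 0.10). The call of TUB3 at 3 h was lost without any of 4 single libraries (citral or ethanol replicate 1 or 2), and that of TUB2 at 6 h without citral replicate 2 or ethanol replicate 1 or 3.

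TUB9 stood out at 3 h. It had 235, 221 and 231 CPM in citral shoots, against 112, 105 and 120.3 CPM in ethanol shoots, a fitted 2.25 times the ethanol level (log2 change 1.17 ± 0.09, adjusted p = 1.13e-12). Citral shoots averaged 216 ± 14.6, 229 ± 6.91 and 242 ± 35.1 CPM at 1, 3 and 6 h, and ethanol shoots 217 ± 20.2, 112 ± 7.81 and 232 ± 23.3 (SD, n = 3 each). Of these 3 times the ethanol shoots were lowest at 3 h, and at 1 and 6 h the log2 change was 0.10 ± 0.10 and 0.03 ± 0.10. Against the ethanol shoots of 0 h TUB9 was higher at 1, 3 and 6 h, by log2 changes of 1.23, 1.35 and 1.19. TUB4 was higher at 3 h as well, with 683, 695 and 621 CPM in citral shoots against 563, 534 and 586 CPM in ethanol shoots (log2 change 0.37 ± 0.12, adjusted p = 0.00988). This call was lost with the authors' scaling factors, with quantile normalization and without ethanol replicate 2. TOC1 moved alongside, at 113 ± 8.51 CPM in citral shoots and 37.7 ± 4.97 in ethanol shoots of 3 h, and its part was not tested. At 6 h TUB4 was lower, with 478, 388 and 456 CPM in citral shoots against 772, 590.0 and 648 CPM in ethanol shoots (log2 change -0.59 ± 0.13). Against the ethanol shoots of 0 h that fall did not pass (-0.07).

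**Figure D2:**
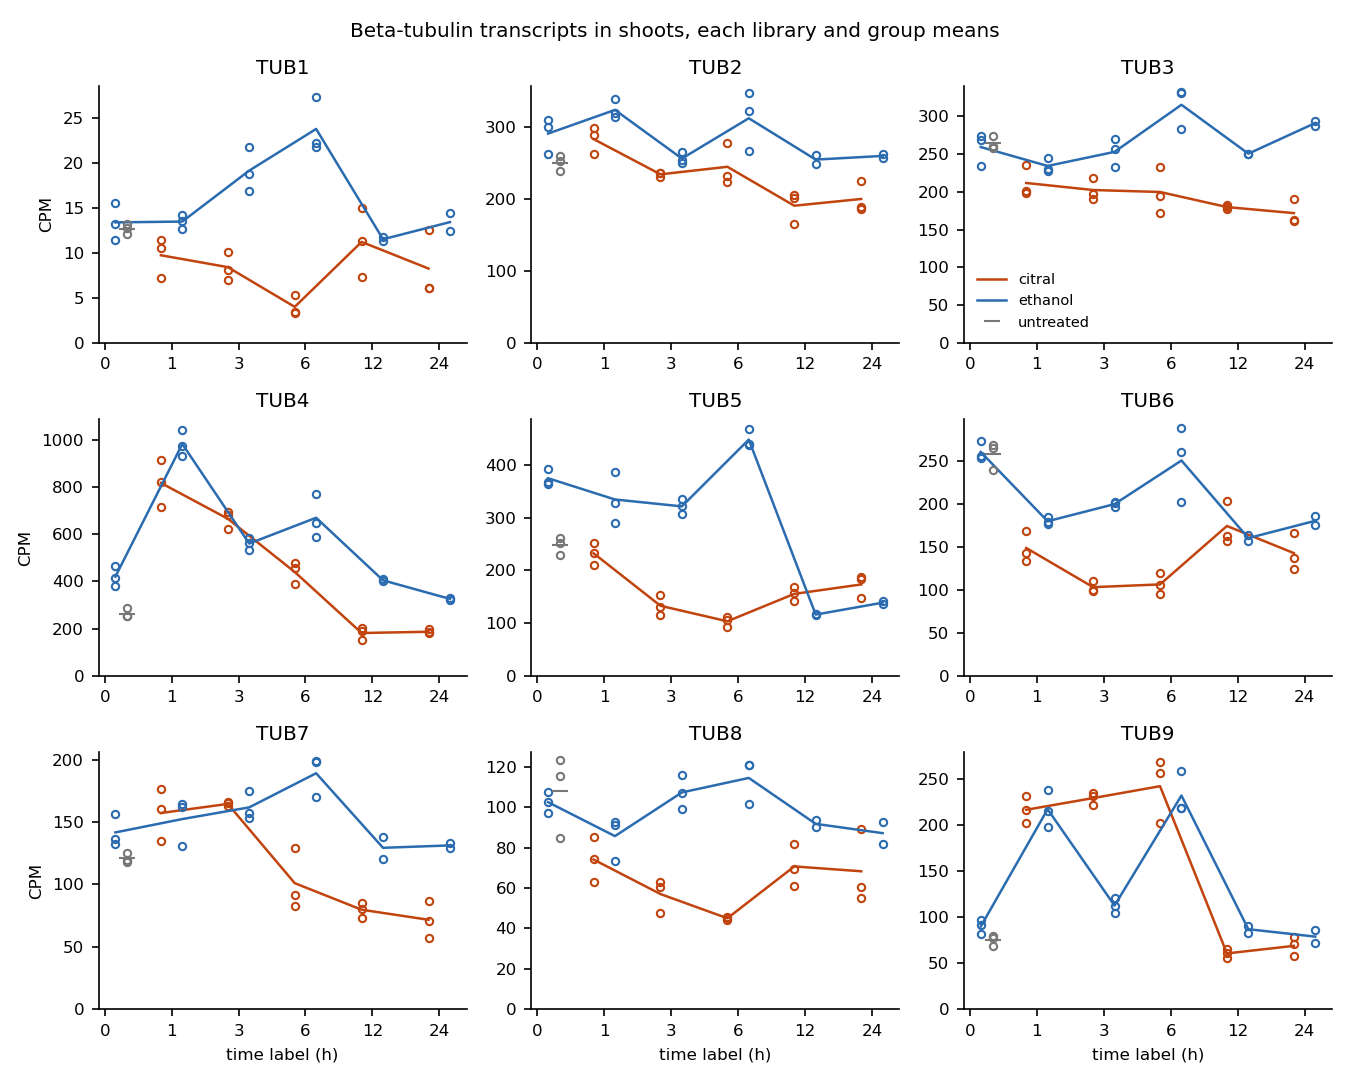
Levels of the 9 beta-tubulins in shoots (CPM, axis from 0) by time label (h, equally spaced), with open circles for libraries of at least 0.5 M reads, lines through group means and a dash for the untreated mean. TUB1, TUB5, TUB6 and TUB8 in citral shoots lie below ethanol shoots at 3 and 6 h. TUB9 lies above at 3 h, where ethanol shoots are lower than at 1 and 6 h.

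At 12 and 24 h the direction of TUB5 in shoots turned on which ethanol plants were set beside the citral plants. Most other members kept their side of the threshold. TUB5 had 168, 157 and 141 CPM in citral shoots of 12 h, against 118 and 115 CPM in ethanol shoots and 253 in the shallow library (log2 change 0.40 ± 0.10, adjusted p = 0.00243). At 24 h it had 184, 188 and 148 CPM in citral shoots, against 136 and 141 CPM in ethanol shoots and 129 in the shallow library (log2 change 0.38 ± 0.11). Ethanol shoots of 0 h had 367, 364 and 393 CPM, and against them TUB5 was lower, by log2 changes of -1.31 at 12 h and -1.06 at 24 h. TUB4 had 203, 189 and 152 CPM in citral shoots of 12 h, against 401 and 409 CPM in ethanol shoots and 19.1 in the shallow library (log2 change -1.16 ± 0.13), and -1.21 against 0 h. TUB9 fell at 12 h (-0.52 ± 0.11) but did not pass at 24 h (-0.18 ± 0.12). TUB7 fell at both times (-0.70 ± 0.14 and -0.98 ± 0.16), as did TUB3 (-0.49 ± 0.11 and -0.70 ± 0.11) and TUB2 (-0.43 ± 0.10 and -0.31 ± 0.11). TUB1, TUB6 and TUB8 did not pass at 12 h (-0.11 ± 0.19, 0.07 ± 0.11 and -0.36 ± 0.15). At 24 h TUB4 (-0.75 ± 0.14), TUB1 (-0.89 ± 0.27) and TUB8 (-0.49 ± 0.17) were lower, and TUB6 (-0.29 ± 0.12) did not pass. Against the ethanol shoots of 0 h TUB6 (-0.61) and TUB8 (-0.55) were lower at 12 h, and TUB1 (-0.30) still did not pass. At 24 h TUB6 (-0.82) and TUB9 (-0.40) were lower against 0 h. Without ethanol replicate 1 or replicate 3 of 12 h, 0 members passed in limma, with 2 and 1 at an unadjusted p under 0.05. At 24 h 3 passed in place of 7 without citral replicate 2, ethanol replicate 1 or ethanol replicate 2. The calls of TUB1 and TUB2 at 24 h were also lost without citral replicate 3, and those of TUB5 and TUB8 without citral replicate 1.

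**Figure D3:**
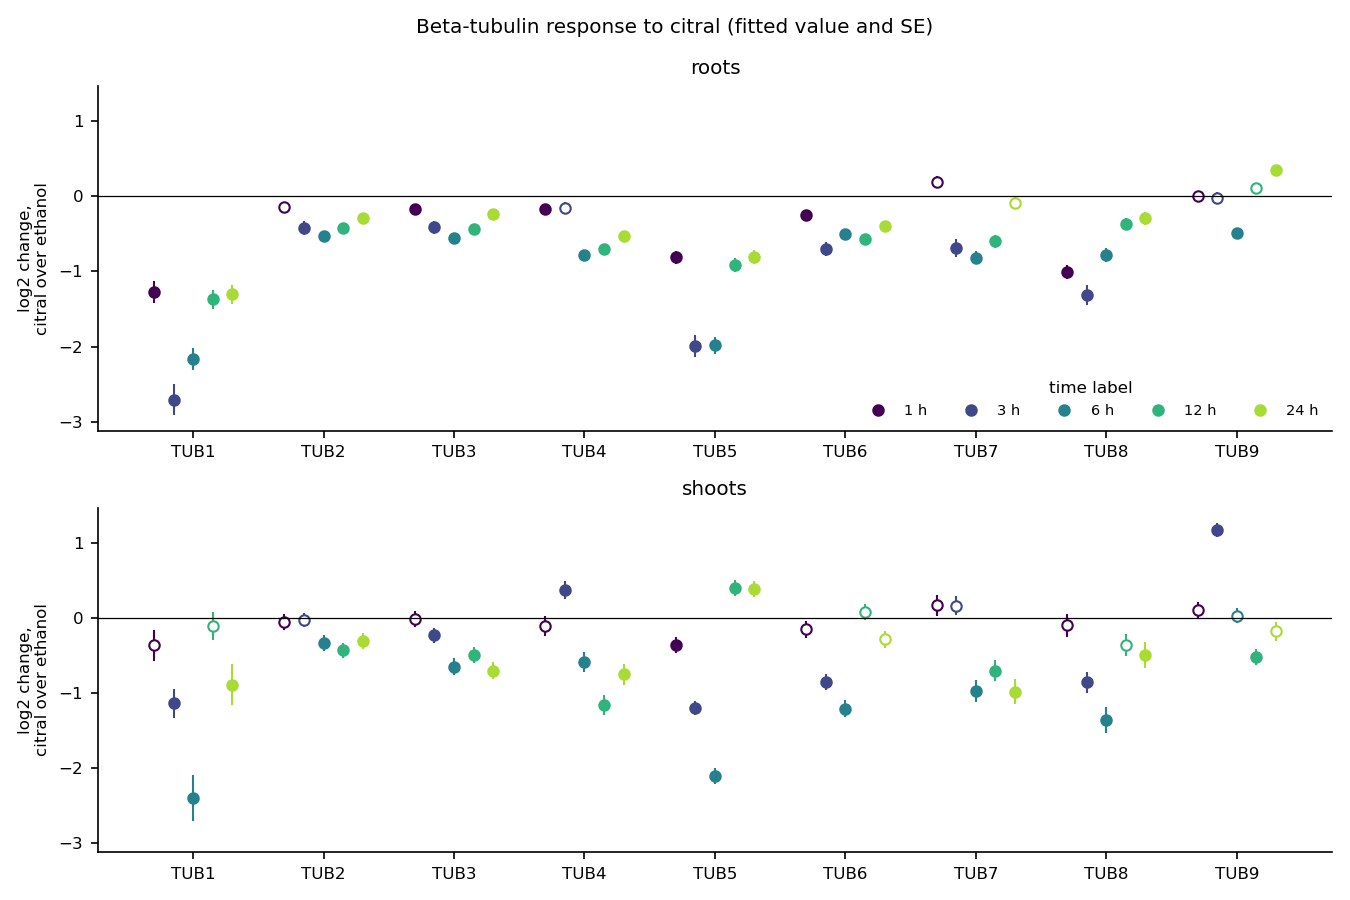
Fitted log2 change of citral over ethanol plants ± SE for each beta-tubulin at 1, 3, 6, 12 and 24 h (left to right within a gene), roots above and shoots below; filled points passed an adjusted p under 0.05 and open points did not. TUB1 and TUB5 reach their lowest points at 3 h in roots (-2.71 and -1.996) and at 6 h in shoots (-2.39 and -2.10).

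Whether the response to citral changed over the 5 times was tested with a limma F test in each organ. All 9 members passed in roots, where 59.5% of loci did, and 8 in shoots, where 52.6% did, with TUB2 not passing (adjusted p = 0.0657). The log2 change of TUB5 in shoots spanned 2.50 between its lowest and highest time, that of TUB1 2.29 in shoots and 1.43 in roots, and that of TUB9 1.69 in shoots and 0.84 in roots. In limma-trend 4 members passed in shoots.

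The response differed between organs for 8 of 9 members over the 5 times (limma F test on all 72 libraries), again without TUB2 (adjusted p = 0.0707), where 63.6% of loci differed. At 1 h the root response was the lower for 3 members and the higher for 0 (9.25% and 7.48% of loci): TUB1 (root minus shoot -0.91 ± 0.26), TUB8 (-0.91 ± 0.18) and TUB5 (-0.46 ± 0.14). At 3 h it was lower for 6 and higher for 0 (17.0% and 9.05%): TUB1 (-1.59 ± 0.29), TUB9 (-1.20 ± 0.12, adjusted p = 2.47e-11), TUB7 (-0.84 ± 0.17), TUB5 (-0.80 ± 0.17), TUB4 (-0.52 ± 0.14) and TUB2 (-0.39 ± 0.13). At 6 h the root response was the higher for TUB6 (0.76 ± 0.13) and TUB8 (0.63 ± 0.19), which had fallen more in shoots, and lower for TUB9 (-0.48 ± 0.11; 12.2% of loci higher and 15.7% lower). TUB1 and TUB5 gave 0.28 ± 0.35 and 0.17 ± 0.15 at 6 h, not past the threshold. At 12 h TUB5 (-1.34 ± 0.14), TUB1 (-1.29 ± 0.24) and TUB6 (-0.67 ± 0.12) were lower in roots and TUB9 (0.61 ± 0.12) and TUB4 (0.44 ± 0.14) higher (13.9% and 10.1% of loci). At 24 h TUB5 was lower (-1.18 ± 0.15) and TUB7 (0.90 ± 0.17), TUB3 (0.51 ± 0.12) and TUB9 (0.45 ± 0.14) higher (13.8% and 16.3%). In limma-trend 4 members passed the F test. Set against the ethanol plants of 0 h in each organ's fit, TUB5 was the lower in shoots at 12 h (-1.31, and -1.03 in roots). The same held at 24 h (-1.06 and -0.80), and for TUB6 at 12 h (-0.61 and -0.38). TUB9 at 12 h gave -0.59 in both organs. The other calls named here kept their order between organs. The organ difference against 0 h was not tested.

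Ethanol plants alone also changed over 0 to 24 h. The F test passed for 9 members in shoots, where 88.2% of loci passed, and for 5 in roots (67.1%). TUB4 in ethanol shoots averaged 421 ± 43.5, 983 ± 56.4, 561 ± 26.1 and 670.1 ± 93.2 CPM at 0, 1, 3 and 6 h (SD, n = 3 each), and 405 ± 5.70 and 326 ± 4.81 at 12 and 24 h (n = 2 each). In ethanol roots its means lay between 503 and 544 CPM and did not pass (adjusted p = 0.0746). TUB5 in ethanol shoots averaged 448 ± 17.2 CPM at 6 h and 116 ± 2.01 at 12 h, whereas in ethanol roots its means lay between 119.6 and 138 CPM (adjusted p = 0.642). TUB9 passed in both organs, with means between 78.7 and 232 CPM in ethanol shoots and between 128 and 257 CPM in ethanol roots. The other members that passed in roots were TUB1, TUB6, TUB7 and TUB8. Without ethanol root replicate 2 or replicate 3 of 0 h 3 members passed in roots, and without replicate 1 8 did.

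**Figure D4:**
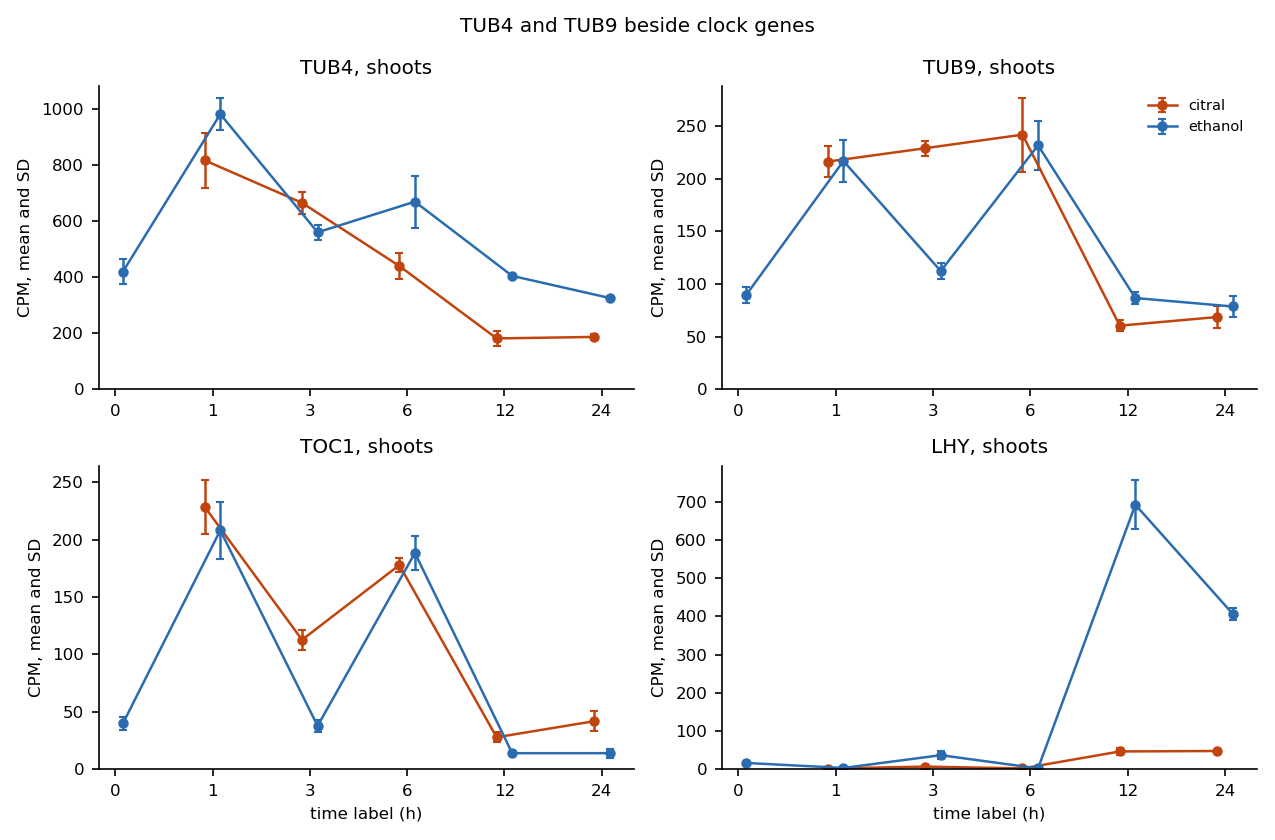
Mean CPM ± SD of TUB4, TUB9, TOC1 and LHY in citral and ethanol shoots by time label (h, equally spaced; n = 3, and 2 for ethanol at 12 and 24 h). In ethanol shoots TUB4, TUB9 and TOC1 are higher at 1 and 6 h than at 3 h, and LHY is high in ethanol shoots at 12 and 24 h.

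Over the 24 group means, each organ's mean removed, log2 levels of TUB9 had a Pearson's r of 0.865 with TOC1, -0.773 with LHY and -0.793 with CCA1, a dawn gene. TUB4 gave 0.539, -0.392 and -0.440. In the other 7 members r with TOC1 lay between -0.403 and 0.0497. TUB4 and TUB9 are the members whose 250 bases hold an evening element, and the part of that element in these patterns was not tested. The points are group means in which both genes come from the same libraries, and r is given as a description with no test.

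Ethanol was set against no addition at 0 h. In shoots 3 members were higher and 0 lower, where 9.29% of loci were higher and 13.1% lower. TUB4 had 379.9, 467 and 415 CPM in ethanol shoots, against 252, 254 and 286 CPM in untreated shoots, without overlap (log2 change 0.58 ± 0.11, adjusted p = 0.000296). TUB5 had 367, 364 and 393 CPM in ethanol shoots, against 229.6, 253 and 261 CPM in untreated shoots (log2 change 0.57 ± 0.09). TUB9 rose less (0.25 ± 0.09, adjusted p = 0.0361), a call lost without ethanol replicate 2 or 3 or untreated replicate 1 or 3. In roots TUB9 (0.37 ± 0.07) and TUB4 (0.21 ± 0.06) were higher and TUB6 (-0.18 ± 0.07, adjusted p = 0.0458) lower, where 14.5% of loci were higher and 11.7% lower. Without ethanol replicate 2 of 0 h 0 passed in roots (limma, 1 at an unadjusted p under 0.05), and without replicate 3 TUB9 alone did. The call of TUB6 was also lost without ethanol replicate 1 or untreated replicate 1 or 3. In limma-trend 0 passed in shoots, with 1 at an unadjusted p under 0.05. TOC1 averaged 39.96 ± 5.47 CPM in ethanol shoots and 23.6 ± 1.67 in untreated shoots (n = 3 each), and its part was not tested.

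Summed over the family in plain CPM, beta-tubulin transcripts averaged lower in citral than in ethanol plants at each of the 5 times in both organs. Citral roots averaged 1601 ± 96.6, 1264 ± 88.6, 1346 ± 41.7, 1503 ± 17.4 and 1699.6 ± 87.9 CPM at 1, 3, 6, 12 and 24 h. Ethanol roots averaged 2111 ± 93.5, 2104 ± 65.2 (n = 2), 2319.7 ± 41.3, 2245 ± 168 and 2229.9 ± 22.6 CPM. Citral shoots averaged 2151 ± 48.4, 1797 ± 44.6, 1486 ± 87.05, 1103 ± 103 and 1091 ± 62.5 CPM. Ethanol shoots averaged 2523 ± 162, 1991 ± 27.9, 2555 ± 261, 1505 ± 5.14 (n = 2) and 1506 ± 0.349 (n = 2) CPM. The other groups have n = 3, and the sums are given without a test. In plain CPM the citral and ethanol libraries did not overlap, except that the shallow ethanol shoot library of 12 h, left out of the mean, lay among the citral shoots. On the TMM scale of the tests, an alternative added after seeing the data, shoots of 1 and 3 h overlapped. Citral shoots then averaged 2215 ± 25.5 and 1882 ± 62.2 at 1 and 3 h, and ethanol shoots 2365 ± 152 and 1923 ± 70.8 (SD, n = 3 each). The other times and all roots stayed apart on that scale in libraries of at least 0.5 M reads.

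The make-up of the family shifted with it, measured as shares of the summed CPM per kb. In citral roots of 3 h TUB1 held 0.914 ± 0.318% and TUB5 2.09 ± 0.272%, against 3.95 ± 0.462% and 5.90 ± 0.000621% in ethanol roots. TUB4 held 32.9 ± 1.34% in citral roots of 3 h, against 26.1 ± 0.399% in ethanol roots, and TUB9 11.2 ± 0.849% against 7.88 ± 0.651%. In citral shoots of 6 h TUB9 held 14.4 ± 2.53% and TUB5 6.68 ± 1.04%, against 8.000 ± 0.445% and 16.8 ± 1.26% in ethanol shoots. TUB4 held 40.2 ± 4.74% in citral shoots and 41.2 ± 0.552% in ethanol shoots of 1 h. These are mean shares ± SD over 3 libraries, 2 for ethanol roots of 3 h, and a share can rise because other members fell.

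**Figure D5:**
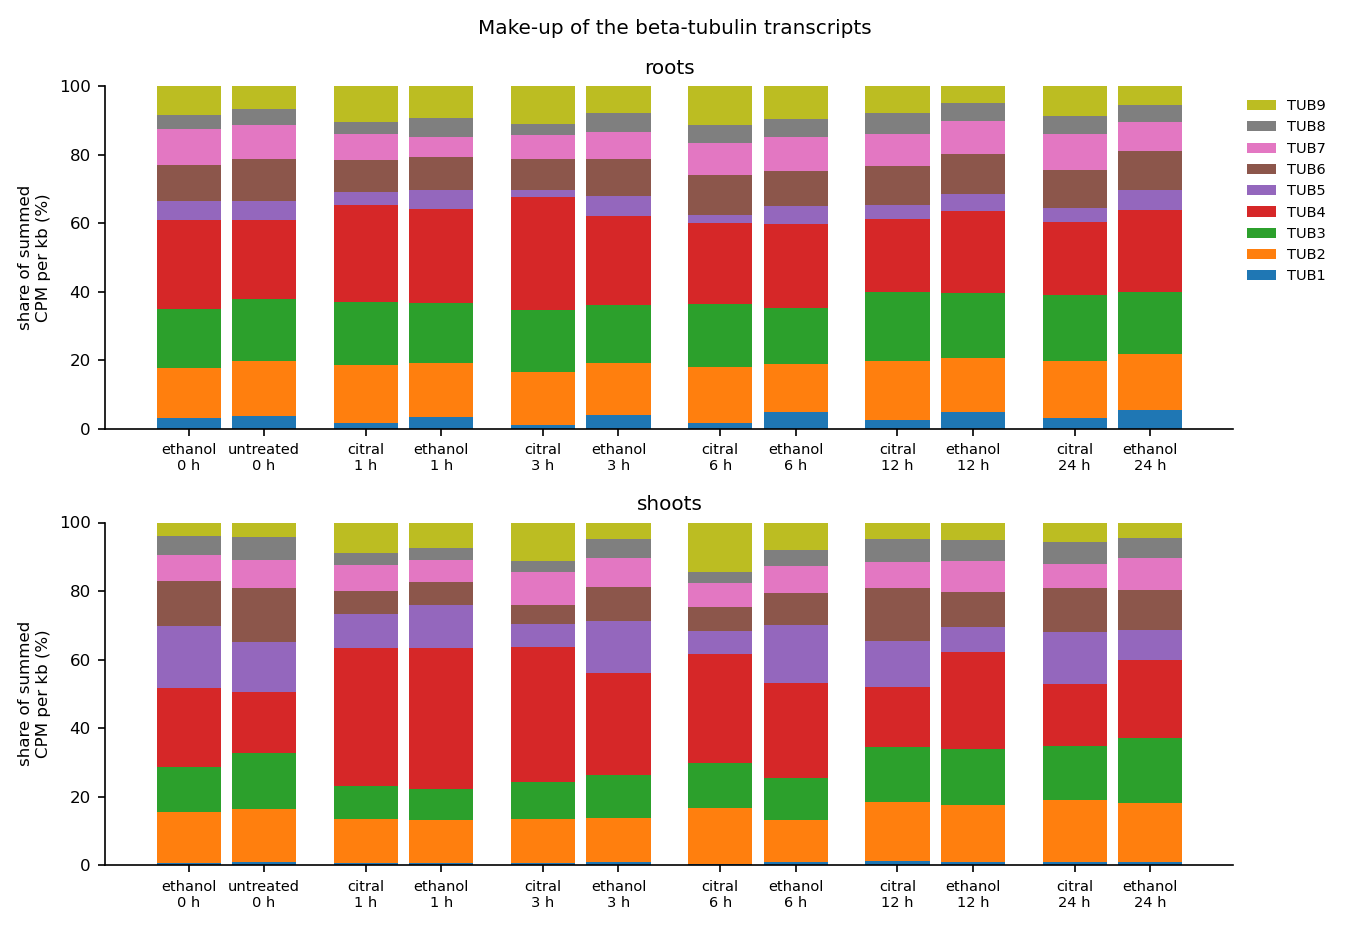
Mean share (%) of each beta-tubulin in the summed CPM per kb of each group, roots above and shoots below, over libraries of at least 0.5 M reads. TUB5 is narrow in citral roots of 3 and 6 h, and TUB4 takes its widest band in shoots of 1 h.

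Partner genes were read from lists. Each list is shown in each organ at the time when most members passed, and no other time gave more calls. Of 6 alpha-tubulins 5 were lower and 1 higher at 6 h in both roots and shoots, where 26.0% and 19.8% of all loci were lower and 22.5% and 21.7% higher, with medians of -0.96 and -0.75 in log2. TUA2 and TUA4 fell in roots (-1.32 ± 0.07 and -1.46 ± 0.08) and TUA2 and TUA6 in shoots (-1.29 ± 0.13 and -0.84 ± 0.11). The 1 that rose was TUA1, known from pollen (0.63 ± 0.12 in roots and 0.76 ± 0.14 in shoots), singled out after its values were seen. The 2 gamma-tubulins, which start new microtubules, were both lower at 3 h (26.2% of loci in roots and 26.7% in shoots), TUBG1 and TUBG2 with log2 changes of -1.35 ± 0.19 and -0.92 ± 0.21 in roots and -0.59 ± 0.14 and -0.40 ± 0.13 in shoots. Of 20 genes for tubulin folding (prefoldin, the CCT chaperonin and cofactors) 17 were lower and 0 higher in roots of 6 h, beside the same 26.0% and 22.5% of loci (median -0.47; CCT8 -0.90 ± 0.08 and CCT2 -0.56 ± 0.07). In shoots of 6 h 1 was lower and 3 higher, shares at or below the 19.8% and 21.7% of all loci. At 24 h 13 were lower and 0 higher, beside 17.2% and 16.2% of loci (median -0.61; CCT5 -0.73 ± 0.09 and CCT2 -0.79 ± 0.10). Of 16 microtubule-associated genes 10 were lower and 1 higher in roots of 6 h, beside 26.0% and 22.5% of loci (median -0.58), among them MAP65-3, which bundles microtubules in dividing cells (-2.11 ± 0.21), and TPX2, of the spindle (-2.06 ± 0.22). In shoots of 3 h 9 were lower and 0 higher, beside 26.7% and 23.6% of loci (median -0.38). Among them were MAP65-2, another bundling protein (-1.09 ± 0.16), and TPX2 (-0.98 ± 0.23). Other times gave less: in roots of 24 h 3 were lower and 0 higher, beside 19.1% and 19.5% of loci. In shoots of 1 h 1 was lower and 0 higher (7.92% and 12.6%). Of the gamma-tubulins 0 passed in roots of 24 h, and 0 in shoots of 12 h (19.0% of loci lower and 19.0% higher).

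The locus most like each member was looked up by Pearson's r of log2 CPM over the 24 group means, each organ's mean removed, among 13865 loci. The summed family was most like TUA3 (r = 0.930). TUB1 was most like SCPL27 (0.961), AT5G57700 (0.960) and TUA2 (0.951), TUB4 most like TUA5 (0.938), and TUB3 most like NDB1 (0.939). TUB5 was most like AT1G21730 (0.932), TUB6 most like AT5G52280 (0.936), TUB8 most like AT5G16590 (0.940) and TUB2 most like HYD1 (0.926). TUB9 was most like AT4G34950 (0.911), PBL1 (0.903) and BBX8 (0.890), and TUB7 most like AT1G73020 (0.853). Within the family r was highest for TUB1 with TUB8 (0.924) and lowest for TUB6 with TUB9 (-0.281). The pairs most alike in coding sequence after TUB2 and TUB3 gave 0.871 (TUB1 with TUB5) and 0.792 (TUB4 with TUB9). Both loci of a pair come from the same libraries, and no test is given.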

How the data were processed

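The authors deposited 1 table of whole numbers for 22122 loci and 72 libraries, used as a score because the values are scaled counts with a floor of 1 (TMM is named with the table; the submitters' processing notes give the build TAIR10). Which aligner and counter made it is not given in the sources used here. Values of a library lie on a grid, so reads were recovered from its factor (0.6655 to 1.311), with 0.5 read for the floor. Python (numpy 2.4.6, pandas 2.3.3) and R 4.3.3 were used. Main tests were limma 3.58.1 fits (voom with library quality weights, robust moderation) on these reads with own TMM factors (30% of log ratios and 5% of abundances trimmed), 12 group means per organ, or all 72 libraries for organ differences. Loci of at least 1 CPM in 3 libraries were tested, with p-values adjusted over all of them by Benjamini-Hochberg. The fits were tested on simulated data with the same spread in every library and few changed loci. Uneven library quality and changes in a large share of loci were not covered by it. Recovered counts limit precision: a beta-tubulin held 5.49 to 21498 reads in libraries of at least 0.5 M. Of 72 replicate pairs 0 were identical, and each varied at least 1.26 times as much as sampling noise. Sequences were aligned with mafft 7.526. The members and lists were chosen with earlier results of these data known. By rule all 9 members were named, at most 2 genes of each other list and organ, those of smallest adjusted p at the time most passed, and the loci of most alike pattern. The fit assumed for counts was kept for the recovered reads.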

Additional observations from a re-analysis of the deposited data

Results flagged for a closer look

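The response to citral differed between times within an organ, by a limma F test, for all root members. The adjusted p in roots was 2.41e-06 for TUB1, 0.0116 for TUB2, 0.00133 for TUB3, 3.3e-09 for TUB4, 2.57e-10 for TUB5, 0.00476 for TUB6, 6.81e-09 for TUB7, 5.54e-08 for TUB8 and 6.81e-09 for TUB9. The call of TUB2 was lost without citral replicate 3 of 1 h and that of TUB6 without ethanol replicate 2 of 1 h.

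In shoots it was 2.55e-05 for TUB1, 0.00159 for TUB3, 3.75e-07 for TUB4, 2.91e-15 for TUB5, 1.02e-07 for TUB6, 3.41e-06 for TUB7, 0.000228 for TUB8 and 2.17e-10 for TUB9.

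The response differed between roots and shoots, tested as an interaction over the 5 times in limma, with an adjusted p of 2.71e-08 for TUB1, 0.00226 for TUB3, 0.000672 for TUB4, 5.48e-15 for TUB5, 4.82e-08 for TUB6, 1.98e-06 for TUB7, 1.86e-05 for TUB8 and 3.83e-13 for TUB9. The call of TUB3 was lost without ethanol shoot replicate 1 or 2 of 24 h.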

How the results depend on the processing

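Of 1665 values under other settings 1465 kept their side of the threshold, 144 lost the call, 48 gained one and 8 reversed. Direction was compared only where the main fit had called a change, and F tests have no direction. A value without a main call could change sign and still count as kept or gained. TUB7 in roots of 1 h, for example, went from 0.19 to -0.64 against the ethanol roots of 0 h and counts as gained. Of 2106 values with 1 library left out the numbers were 1983, 92, 31 and 0. Leaving out libraries for the tests over time and between organs was chosen after seeing the data. No paired analysis was possible because the labels give no replicate numbers.

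Shoot counts depended on library weights. Without weights 0, 4, 5, 2 and 1 members passed at 1, 3, 6, 12 and 24 h, and in limma-trend 0, 3, 4, 2 and 1, with a pseudocount of 0.5 or 0.1. At 1 h the compared groups alone gave 0, quantile normalization 2 and the ethanol shoots of 0 h 6. Each 0 at 1 h had 1 member at an unadjusted p under 0.05 in limma. At 0 h 1 passed in shoots without weights and 0 in limma-trend (1 unadjusted). The change over time in shoots passed for 4 members without weights and in limma-trend, the change of ethanol shoots for 5 in limma-trend, and the organ difference for 4 without weights and in limma-trend. Scaling moved the splits, lower and higher: shoots of 3 h 5 and 1 with the authors' factors, 6 and 1 with quantile normalization, roots of 0 h 1 and 1 with either, and untreated roots over shoots 2 and 6 with quantile normalization.

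Called changes that reversed were, against ethanol plants of 0 h, TUB5 in shoots of 12 h (-1.31, adjusted p = 3.68e-13 in limma) and 24 h (-1.06, 1.85e-10) and TUB9 in roots of 24 h (-0.30, 0.00167). In shoots of 12 h TUB7 gave 0.46 (0.661) without weights and 1.4 (0.169) and 1.53 (0.158) in limma-trend, and TUB4 0.41 (0.603) and 0.42 (0.596). The cause of these changes was not tested.

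With 1 library left out the counts ranged over 0 to 1, 5 to 7, 7 to 8, 0 to 7 and 3 to 8 in shoots at 1, 3, 6, 12 and 24 h, and 2 to 3 at 0 h. In roots they ranged over 4 to 6, 6 to 8, 9 to 9, 8 to 8 and 5 to 8, and 0 to 3 at 0 h. Change over time gave 8 to 9 in each organ, ethanol over time 6 to 9 in shoots and 3 to 8 in roots, the organ difference 7 to 9 and untreated roots over shoots 6 to 6. With the times to 6 h only, 9 members passed over time in roots and 8 in shoots, and 8 for the organ difference. Citral libraries were shallower than most controls, and TUB1 in shoots, the lowest member, is limited most by depth.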
